A study of Mus musculus with 5 samples.

Results

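Ductal cells are the epithelial cells that line the tubes of the pancreas, and 243 of them were found among 22758 kept cells of hand-picked islets from 5 mice. Each mouse gave 1 droplet library (10x Genomics 3 prime chemistry), in which a read is counted once per unique molecular identifier (UMI), so that a UMI stands for 1 captured RNA molecule. HC mice 1 and 2 received a diet with 20% HC (hydrolyzed casein) and were 7 and 9 weeks old, and chow mice 1, 2 and 3 received chow and were 8, 10 and 10 weeks old. All 5 mice were of the strain NOD.Cg-Prkdcscid/J (NOD.SCID), whose scid mutation of Prkdc leaves them without mature T and B cells, so no group tests the diets in the presence of these cells. HC mouse 2 carries a chow-fed title, but its diet label reads 20% HC and the series counts 2 mice on that diet. It was therefore treated as an HC mouse, and the effect of grouping it by title is given with the diet results. Library names begin with FUN (HC mouse 1, chow mouse 1) or SKY (HC mouse 2, chow mice 2 and 3), a prefix that the labels do not explain. Islets were picked by hand after collagenase had been injected through the bile duct, so the ductal cells here are those that came along with picked islets and not a sample of the whole ductal tree.

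Pancreatic ducts carry the enzymes made by acinar cells to the gut, and they add a bicarbonate-rich fluid through the chloride channel Cftr, anion transporters and water channels. Their cells stand in a sealed layer held by claudins and keratins and bear a primary cilium. In the adult mouse they keep Sox9 and Onecut1, transcription factors of the embryonic pancreatic epithelium.

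The cells were chosen by their own RNA. A member had at least 8 UMIs summed over Spp1, Krt19, Sox9, Cldn10 and Wfdc18 with at least 2 of these genes detected, at most 2 UMIs of C1qa, C1qb and C1qc together, at most 2 of Col1a1, Col3a1 and Dcn together, and under 20% of its UMIs from the islet hormone genes Ins1, Ins2, Gcg, Sst and Ppy. Levels of all genes in members against other cells are therefore descriptions, and no test was made of them. The summed UMIs of the 5 rule genes stood far from the threshold in most members: 232 had at least 20, 1 stood just inside with 8 or 9, and 2 cells stood just outside with 6 or 7. Of the rule genes, 2 were detected in 16 members, 3 in 59, 4 in 80 and all 5 in 88. The hormone limit left out 45 cells that met the other criteria, 15 and 4 in HC mice 1 and 2 against 13, 10 and 3 in chow mice 1, 2 and 3. A further 38 cells had the UMIs from 1 rule gene alone, and the C1q and collagen limits left out 2 and 1.

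Libraries held 28722244 to 39624978 UMIs in 4452 to 6087 barcodes. Members had a median of 3730 and 3354 UMIs per cell in HC mice 1 and 2, against 4850, 6321 and 3378 in chow mice 1, 2 and 3. Summed over members this gave 120033 and 519639 UMIs in the HC mice, against 234748, 335083 and 220740 in the chow mice, and levels are given below as CPM, the counts scaled to a fixed total per mouse. Any 2 libraries shared 4 to 14 cell barcodes, and no barcode of a member was shared with a member of another mouse. The doublet caller Scrublet marked 116 of the kept cells (0.51%), of which 102 lay in chow mouse 3 and at most 6 in any other mouse, so the calling did not work evenly. None of the 243 members was marked, and 4 had a score among the highest 6% of their mouse.

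Markers of endothelial, stromal and leukocyte cells were low in the members, while some markers of other types were not. Of 6 endothelial markers the summed level lay between 0 and 7.70 CPM in HC mice and 4.26 and 40.8 CPM in chow mice, with Pecam1 and Kdr at 0 UMIs. Of 6 stromal markers it reached 5.77 CPM in HC mice and was 0 in chow mice, with Col1a1, Lum and Pdgfra at 0. Of 6 leukocyte markers it was 0 in HC mice and reached 4.53 CPM in chow mice, and C1qb and C1qc of the macrophage list were at 0. The macrophage list as a whole summed to between 345 and 725 CPM in HC mice and between 119 and 548 CPM in chow mice. It was led by Cd74, the invariant chain of class II molecules, at 368 ± 246 CPM (SD over 5 mice) against 252.5 CPM in other kept cells. The C1q and collagen genes are limited by the rule itself. Schwann cell, mesothelial, tuft and mucous cell markers summed to at most 72.4 CPM in any mouse, with Muc5b, Muc5ac and Muc2 at 0. All 4 ciliated cell markers were higher in members than in other kept cells, 3 of them more than 10 times. They summed to 58.3 and 23.1 CPM in HC mice against 17.0, 8.95 and 9.06 CPM in chow mice. Of 6 alpha cell markers 2 were higher, Ttr at 4406 against 3208 CPM and Gc at 81.05 against 47.35 CPM. Of 3 delta cell markers 1 was higher, by more than 10 times. Of 5 pericyte markers only Rgs5, a regulator of G protein signalling, was at more than traces, with 667 and 543 CPM in HC mice against 558, 478 and 471 CPM in chow mice, and it was detected in 74.9% of members. Acta2, Pdgfrb, Cspg4 and Myh11 of the same list were at 0 to 21.2 CPM.

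One member of HC mouse 2 was rich in neuron genes and poor in keratins. Of its 13400 UMIs, 67 were from Stmn2, 53 from Prph, 54 from Uchl1, 67 from Npy and 65 from Vip, all genes of neurons. It had entered the rule with 24 UMIs of Spp1 and 1 of Cldn10, and it had 0 UMIs of Krt8 and 1 of Krt18. The other members of HC mouse 2 had at most 1 UMI of Stmn2, Prph and Uchl1 together, and no member of any other mouse had more than 3. This neuron-rich cell is counted among the members, and each diet count was recomputed without it.

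RNA of islet and acinar cells was present in the members' droplets. Islet hormone genes made up 1.60% and 0.577% of member UMIs in HC mice 1 and 2, against 2.37%, 1.29% and 1.75% in chow mice 1, 2 and 3. Acinar enzyme genes made up 0.0200% and 0.101% in HC mice, against 0.462%, 0.00657% and 1.86% in chow mice. Among the cells that the rule let in, hormones were 1.09% ± 0.722 (SD, n = 2) against 1.80% ± 0.541 (SD, n = 3, two-sided exact permutation p = 0.4). The rule caps the hormone share of every member, so this test cannot say whether the diets differ in it. Acinar enzymes were 0.0606% ± 0.0574 against 0.775% ± 0.964 (exact permutation p = 0.7), a difference that did not exceed the spread between mice. Over the 10 splits of 5 mice the smallest possible p is 0.1. The acinar RNA sat in few cells, since 5 members had 5% or more of it and the highest, in chow mouse 1, had 24.4%; 14 members had 5% or more of hormone RNA.

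Among the rule genes Spp1 carried most of the choice. Spp1 encodes osteopontin, a secreted phosphoprotein, and was detected in 242 of the 243 members with a median of 82 UMIs. Its level was 25530 and 17730 CPM in HC mice 1 and 2, against 29420, 25730 and 19120 CPM in chow mice 1, 2 and 3. The diets overlapped, and the mean over the other kept cells was 28.4 CPM. Had Spp1 been left out of the rule, 175 members would have remained, while leaving out any other rule gene kept 234 to 240. Krt19, a keratin of ductal epithelium, had 517 and 510 CPM in HC mice against 528, 698 and 630 CPM in chow mice. Sox9, a transcription factor that marks ducts in the adult pancreas, had 1058 and 583 CPM in HC mice against 971, 695 and 548 CPM in chow mice. Cldn10, a claudin that forms ion-selective pores, had 567 and 450 CPM in HC mice against 895, 713 and 521 CPM in chow mice. Krt19 was lower in both HC mice than in every chow mouse, narrowly against chow mouse 1, as were 7.94% of all genes tested. The diets overlapped for Sox9 and Cldn10. None of these rule genes was called between the diets (edgeR adjusted p = 0.9997 for each). Since the rule chose the cells by these genes, that test cannot say whether the diets differ in them. Their levels and log2 changes are descriptions. The log2 change was -0.31 for Krt19 and -0.52 for Cldn10. Wfdc18, a secreted protein with a whey acidic protein domain, was detected in 61.3% of members and ranged between 1167 CPM in chow mouse 1 and 2202 CPM in chow mouse 2. Lcn2, a defence protein that binds bacterial siderophores and was not part of the rule, had 1391 and 799 CPM in HC mice against 711, 716 and 856 CPM in chow mice. It was detected in 76.5% of members and in 0.186% of beta cells (cells with at least 20% of their UMIs from Ins1 and Ins2).

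**Figure D1:**
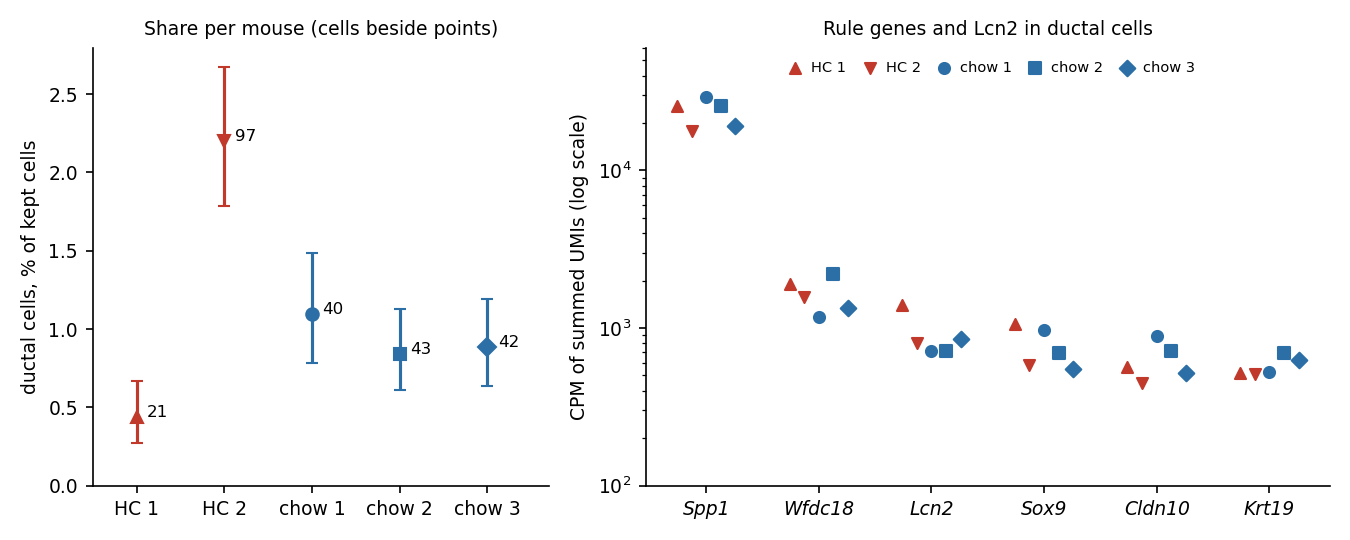
Left, ductal cells as a percentage of kept cells in each mouse, with exact 95% binomial intervals and the number of ductal cells beside each point. Right, summed level of the 5 rule genes and Lcn2 in the ductal cells of each mouse, in CPM on a log axis; HC mouse 2 holds the highest share (2.20%) and HC mouse 1 the lowest (0.436%), while Spp1 stands between 17730 and 29420 CPM in all mice.

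Genes outside the rule drew the same epithelium in all 5 mice. For 3323 genes at a mean of 50 CPM or more in members over the 5 mice, the median ratio of the member level over that of all other kept cells was 2.90. Hormone genes made up 52.9% to 61.1% of the UMIs of those other cells. Most of the 3323 genes were thus higher in members than in other kept cells. Neither a higher level nor a ratio near that value is by itself a mark of ductal cells. Of 30 duct genes outside the rule, 28 had a higher level in members than in other kept cells and 21 a level more than 10 times higher, and their median ratio was 21.6. Clu, the chaperone clusterin, had 13280 and 15440 CPM in HC mice against 12850, 15400 and 14140 CPM in chow mice, and had a UMI in every member. The keratins Krt18 (2661 ± 252 CPM, SD over 5 mice) and Krt8 (2268 ± 286) and the adhesion protein Epcam (2088 ± 208) varied little between mice. Ambp, the precursor of the protease inhibitor bikunin, was at 1461 ± 257 CPM. Of the transcription factors, Onecut1 was at 222 ± 16.2 CPM in members and 0.133 CPM in other cells, and Nr5a2 at 70.3 ± 6.44 CPM and 0.530 CPM. Islet lineage factors were at or near traces: Neurog3 had 1 UMI over all members (in chow mouse 1), Nkx6-1 averaged 5.24 CPM against 145 CPM in other cells, and Pdx1 19.6 CPM against 68.7 CPM.

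Among the 20 genes with the highest ratio over other cells were Msmp, Aqp5, Lcn2, Onecut1, Ankrd1, Crp, Ces1d, ccdc198, Pdgfc, Tmem45a, Sbspon, Nr0b2, Gsta3, Krt17, Wfdc2, Cldn2, Cp, Ppp1r1b and Krt23. Several of them are better known from liver, among them the C-reactive protein gene Crp, the carboxylesterase Ces1d, the nuclear receptor Nr0b2 and the copper-carrying ferroxidase ceruloplasmin, Cp. Crp had 308 and 179 CPM in HC mice against 268, 293 and 236 CPM in chow mice. Cp had 1216 and 1108 CPM in HC mice against 1031, 970 and 1015 CPM in chow mice. These genes were thus present in every mouse, Cp in 83.1% of members and Crp in 58.0%, against 0.227% and 0.138% of beta cells. Thinned to 1000 UMIs per cell the shares were 55.5% for Cp and 19.8% for Crp in members, against 0.0442% and 0.0191% in beta cells.

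**Figure D2:**
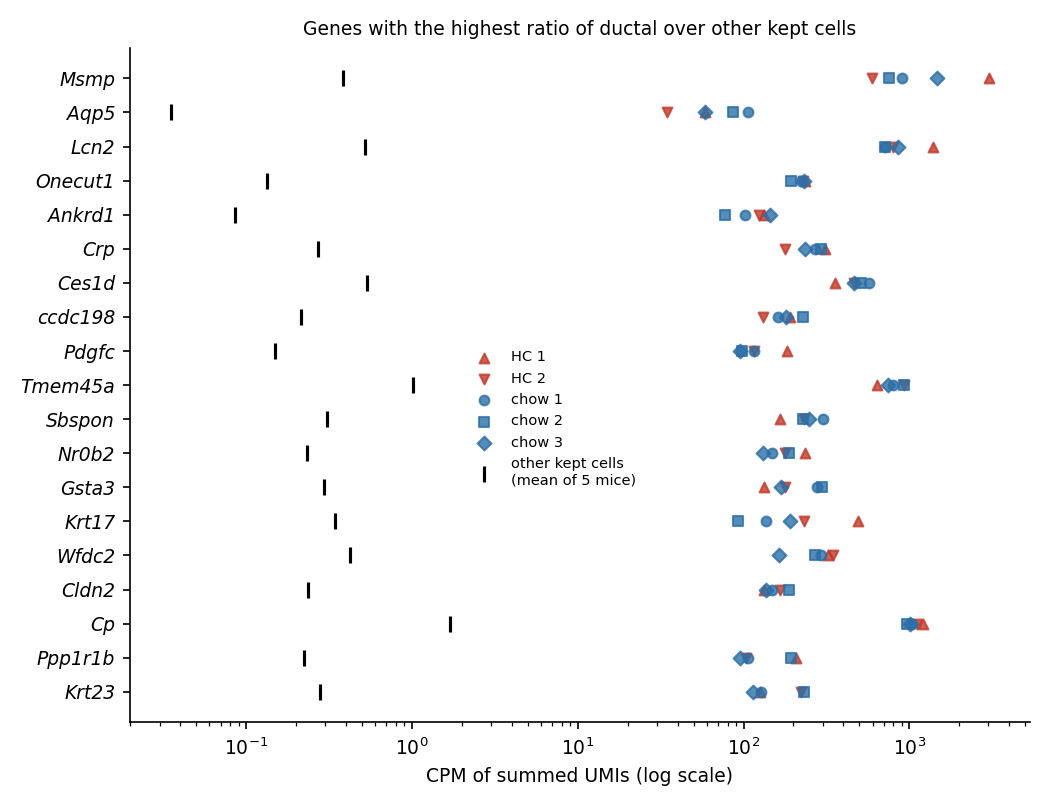
Summed level in CPM (log axis) of the genes with the highest ratio of ductal over other kept cells, one symbol per mouse, and the mean over the 5 mice of all other kept cells as a black bar. Ductal levels lie between 34.6 CPM (Aqp5, HC mouse 2) and 3016 CPM (Msmp, HC mouse 1), and all means of the other cells lie at or under 1.69 CPM (Cp).

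The promoters of these genes were searched for the letters ATCGAT, preferred by the Onecut factors, over 300 bases (250 before the start and 50 from it) in RefSeq's table for GRCm38.p6, on both strands. Of 39 genes searched, chosen after their levels had been seen, 27 had an entry, with 33 promoters. The letters were in 1 of the 33 (Ambp) and in 0.925% of all 32851 promoters in the table. A match is a description of the letters, and no binding was measured. Among the genes searched, Pkhd1 encodes fibrocystin, a protein of the primary cilium, and had 275 and 160 CPM in HC mice against 187, 131 and 136 CPM in chow mice.

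The machinery of fluid secretion was present, at low levels. Of 22 genes for fluid and bicarbonate secretion 18 were higher in members than in other kept cells, 12 of them more than 10 times, and 3 had no UMI in any member (Slc26a3, Car14 and Slc9a3). Atp1b1, a subunit of the sodium pump, led the list at 971 ± 71.7 CPM (SD over 5 mice). Cftr was at 62.4 ± 19.1 CPM in members and 0.108 CPM in other cells, and it had a UMI in 23.5% of members and 0.0810% of beta cells. The potassium channel Kcnn4 was at 187 ± 28.9 CPM, the bicarbonate cotransporter Slc4a4 at 80.2 ± 20.3 CPM, the carbonic anhydrase Car2 at 61.6 ± 15.3 CPM and the water channel Aqp5 at 69.0 ± 27.9 CPM. All 22 genes of tight junctions and cell polarity were higher in members, led after Epcam by the claudins Cldn3 (952 ± 80.0 CPM) and Cldn7 (545 ± 54.2 CPM). Of 13 genes of the primary cilium 12 were higher, with a median ratio of 2.87, close to that of all genes, while Bicc1 (571 ± 34.8 CPM) and Pkhd1 (178 ± 58.7 CPM) stood well above it at 21.5 and 1.79 CPM in other cells. Foxj1, a regulator of motile cilia, was at 19.1 ± 17.8 CPM, highest in HC mouse 1 (49.99 CPM).

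Genes of the Hippo pathway and of defence were also part of the profile, while Notch genes stood near the median of all genes. Of 12 genes of the Hippo pathway and its targets all were higher in members, with a median ratio of 26.1; the targets Ccn2 (237 ± 34.6 CPM), Ccn1 (198 ± 53.7 CPM) and Ankrd1 (116 ± 26.7 CPM) led them. Of 15 Notch genes 12 were higher, with a median ratio of 3.55, near the 2.90 of all genes. The receptor Notch2 was at 70.7 ± 19.9 CPM, the target Hes1 at 160.5 ± 35.4 CPM and the ligand Jag1 at 15.01 ± 12.2 CPM. Of 30 defence genes 25 were higher and 16 more than 10 times higher. The endotoxin coreceptor Cd14 was at 338 ± 65.4 CPM and the receptor that carries antibodies across epithelia, Pigr, at 241 ± 54.1 CPM. The summed level of the defence list was highest in chow mouse 3, with 8123 CPM against 3268 to 5157 CPM in the other mice, and 3289 CPM of it came from Reg1, a gene at 29030 CPM in the acinar cells of these libraries; chow mouse 3 also had the highest acinar share.

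The dispersion between members was highest in a handful of genes. The measure used was the dispersion around each mouse's mean scaled to the cell's depth, which is 1 where cells differ by counting error alone. Its median was 1.07 over the 3323 genes, and 198 genes were above 2. The highest values belonged to hormones and acinar enzymes (Gcg, Sst, Ctrb1 and Ins2), genes of other cells. Next to them stood Wfdc18 at 39.6, between 20.1 and 53.3 in the 5 mice, Spp1 at 35.4, Apoe, which encodes a lipid carrier, at 30.2, Msmp, a small secreted cysteine-rich protein, at 23.8, and Krt17, an intermediate filament protein that rises in stressed epithelia, at 15.4. Epcam, at a level near that of Wfdc18 (2088 against 1638 CPM), was at 2.66. The measure rises with a gene's level where relative variation is equal, and Spp1 averaged 23510 CPM. Its value cannot be set against that of Epcam as a difference in relative variation. Spp1 and Wfdc18 also belong to the rule that chose the cells. Leaving out the neuron-rich cell, Wfdc18 was at 0 UMIs in 93 of 242 members (38.4%) and at 10 or more in 76 (31.4%), and Msmp had 5 or more UMIs in 45 (18.6%). Only 4 members had both at those levels.

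The variable genes fell into groups whose levels moved together from cell to cell. The correlations that follow are Pearson's r of depth-scaled residuals over 242 members, centred within each mouse; the genes were picked after their values were seen, cells of a mouse share a library, and no p is given. Krt17, Basp1, Vcam1, Ccl2, Nfkbia, Cldn4, Cxcl16 and Krt8 formed 1 group. Basp1 (chr15:25363277-25413764), which encodes a membrane-bound signalling protein, correlated with Krt17 at 0.755 (0.514 to 0.963 within single mice), with the adhesion molecule Vcam1 at 0.725, with Nfkbia, the inhibitor of NF-kB that is itself an NF-kB target, at 0.704 and with the chemokine Ccl2 at 0.657. A second group held Spp1, Apoe, Dbi, Ambp and Fth1, with Spp1 and Apoe at 0.657 (0.557 to 0.852 within mice). The groups ran opposite to each other, with Basp1 at -0.401 with Dbi and -0.395 with Ambp. A further group held genes of dividing cells, with Stmn1, a regulator of microtubules, at 0.713 with the chromatin protein Hmgb2 and 0.660 with Cks2. Ly6a, Ly6d and Ifitm3 formed a looser group, with Ly6a at 0.492 with Ly6d, positive in 3 of the 5 mice. Lcn2 stood in none of them; its closest partner was the complement gene C3 at 0.365.

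**Figure D3:**
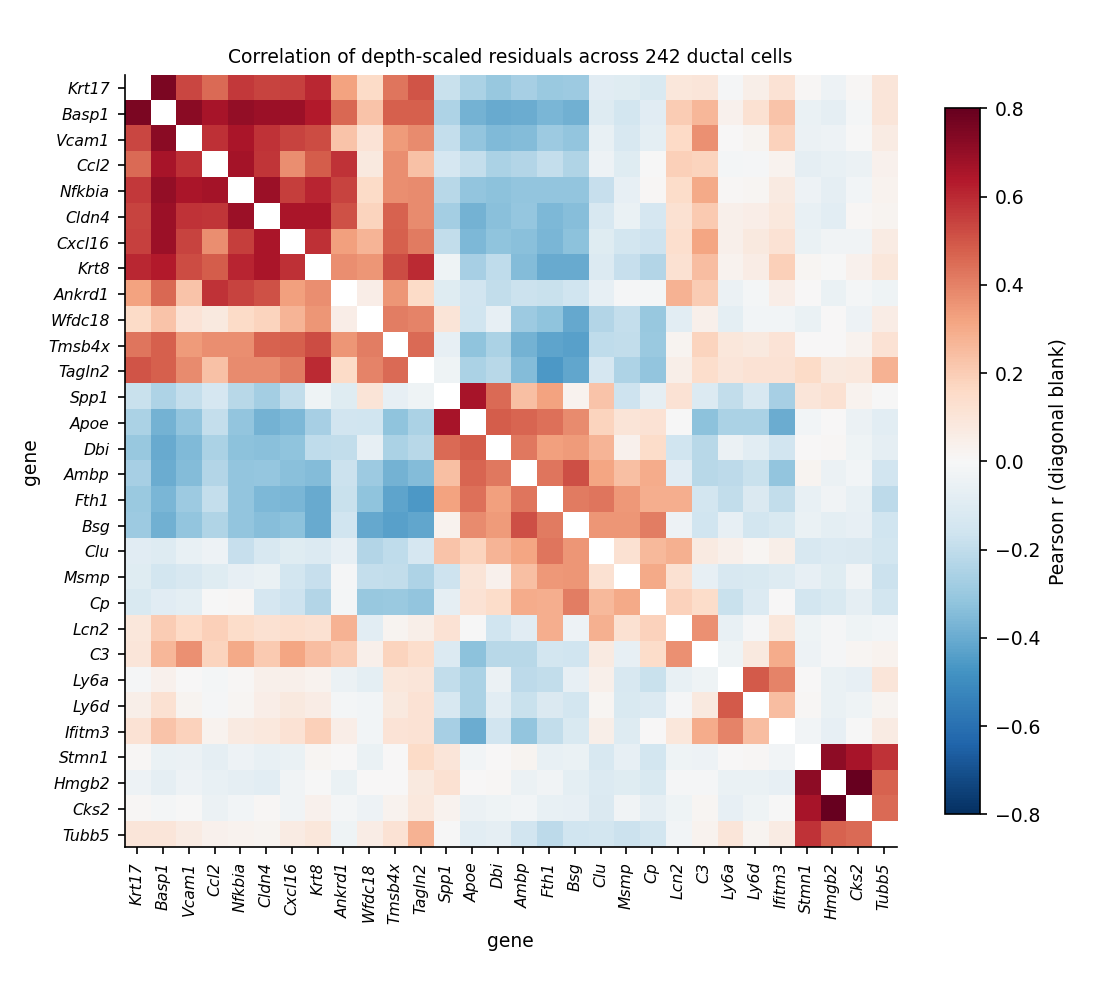
Pearson's r between depth-scaled residuals of 30 variable genes over 242 ductal cells of 5 mice, centred within each mouse; red is positive, blue negative and the diagonal is blank. The block at the upper left holds Krt17, Basp1, Vcam1, Ccl2, Nfkbia, Cldn4, Cxcl16 and Krt8, and its rows are blue against Apoe, Dbi, Ambp, Fth1 and Bsg.

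Cells with a UMI of at least 2 of Krt17, Ccl2 and Vcam1 made up 40 of 242 members (16.5%). They were 6 of 21 (28.6%) and 19 of 96 (19.8%) in HC mice 1 and 2, against 8 of 40 (20.0%), 4 of 43 (9.30%) and 3 of 42 (7.14%) in chow mice 1, 2 and 3. HC mouse 1 was highest, and HC mouse 2 stood just under chow mouse 1, so the diets overlapped. Their median depth was 5864 and 4117 UMIs in HC mice, against 3445.5, 2650.5 and 5618 in chow mice, and was above that of the other members in 3 of the mice. Basp1, Nfkbia, Cldn4, Cxcl16 and Krt8 were named because they correlated with Krt17, Vcam1 and Ccl2 in these same cells, so their levels restate that correlation as a description. In each of the 5 mice the cells had more Basp1 than the other members, 1359 ± 742 CPM against 86.7 ± 45.5 CPM (SD over 5 mice), and also more Krt8, Nfkbia, Cldn4, Cxcl16, Ankrd1, C3 and Serpinb9. Nfkbia was at 2078 ± 695 CPM against 312 ± 86.3 CPM, Cldn4 at 728 ± 380 CPM against 88.97 ± 27.97 CPM and Krt8 at 5084 ± 2140 CPM against 1906 ± 223 CPM. Ambp was lower in all 5 mice, at 750 ± 433 CPM against 1618 ± 315 CPM, as was Dbi, at 2109 ± 444 CPM against 4264 ± 744 CPM. Ambp and Dbi had been named for running opposite to Basp1 in these same cells, so their levels also restate a correlation. Spp1 and Apoe, of the same group as Ambp and Dbi, were each higher in 1 of 5 mice. Krt19 did not separate the cells with 2 or more of the 3 genes from the other members. It was at 667 ± 437 CPM against 573 ± 90.5 CPM, with a higher level in 2 of 5 mice. Of all members, 8 (3.31%) held at least 3 of 9 division genes such as Mki67 and Top2a. None of these 8 was among the 40, which made up 16.5% of all members. With so few dividing cells, this cannot be read as a separation of the sets.

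**Figure D4:**
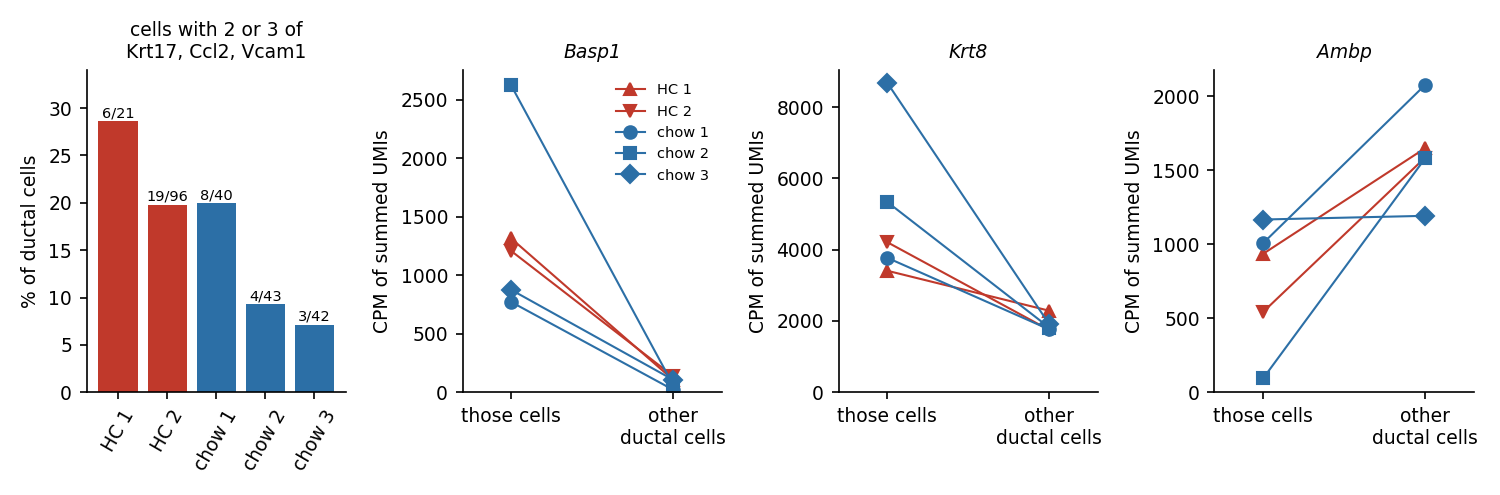
Left, percentage of ductal cells in each mouse with a UMI of 2 or 3 of Krt17, Ccl2 and Vcam1, with the numbers of cells above the bars. Right, summed level of Basp1, Krt8 and Ambp in CPM in those cells and in the other ductal cells, one line per mouse; Basp1 and Krt8 are higher and Ambp lower in those cells in all 5 mice.

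The promoter of Nfkbia is shown because its gene stood in the group with Krt17 and Basp1. It holds GGANTTTCC, letters preferred by NF-kB factors, at 2 places shown in capitals, beginning 178 bases before the start on the gene's own strand and 29 bases before it on the opposite strand (GRCm38.p6, chr12:55492598-55492897, minus strand).
Nfkbia: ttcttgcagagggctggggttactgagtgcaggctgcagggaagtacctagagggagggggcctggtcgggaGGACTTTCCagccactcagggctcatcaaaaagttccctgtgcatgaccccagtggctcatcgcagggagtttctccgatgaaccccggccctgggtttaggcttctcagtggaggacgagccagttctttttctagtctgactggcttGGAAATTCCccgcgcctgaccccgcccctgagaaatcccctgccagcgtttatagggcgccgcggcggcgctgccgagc
Of the 33 promoters searched, GGANTTTCC was in 2 (Nfkbia and Krt23), and in 1.25% of all 32851. TTCNNTTTC, letters preferred by interferon regulatory factors, was in 6 (Apoe, Crp, Igtp, Nfkbia, Serpinb9 and Spp1) and in 8.56% of all. Krt17, Vcam1, Ccl2 and Cxcl16 have no entry in the table.

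The share of ductal cells did not separate the diets. Members made up 0.436% and 2.20% of kept cells in HC mice 1 and 2, against 1.09%, 0.840% and 0.885% in chow mice 1, 2 and 3. The 2 HC mice were thus the lowest and the highest of the 5, and the 3 chow mice lay close together. The means were 1.32% ± 1.25 (SD, n = 2) and 0.939% ± 0.136 (SD, n = 3), a difference of 0.377 points (two-sided exact permutation p = 0.8). Within FUN libraries HC minus chow was -0.658 points, and within SKY libraries 1.34 points. The difference was -0.504 points without HC mouse 2 and -0.819 points with that mouse grouped by its title. Beside 21 and 97 members in HC mice 1 and 2, the hormone limit of the rule had left out 15 and 4 cells. In chow mice 1, 2 and 3 it had left out 13, 10 and 3 cells beside 40, 43 and 42 members.

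In ductal cells 4 genes differed between the diets: Basp1 and Serpinb9 were higher in HC mice, and Chga and Tyms were lower. Counts summed over the members of each mouse were compared for 4267 genes with edgeR's quasi-likelihood test and Benjamini-Hochberg adjustment over all of them; 2 genes rose (0.0469% of those tested) and 2 fell (0.0469%), together 0.0937%, and 195 (4.57%) had an unadjusted p under 0.05. All 4 calls were lost without chow mouse 3, with HC mouse 2 grouped by its title and in DESeq2, where each count was 0, with 242, 338 and 38 genes at an unadjusted p under 0.05. Of all genes tested, 18.5% had both HC mice beyond all 3 chow mice. The labels give 1 library per mouse, and the p-values measure the spread between these 5 mice, in which diet was not balanced over age. Whether a difference comes from fewer cells with the RNA or from less of it in each cannot be told apart from the sums, so the cells with a UMI are given beside them.

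Basp1 had 558 and 371 CPM in HC mice 1 and 2, against 170, 143 and 154 CPM in chow mice 1, 2 and 3. Both HC mice stood above every chow mouse, and the log2 change was 1.51 (SE 0.219, edgeR adjusted p = 0.00157). It had a UMI in 57.1% and 39.2% of members in HC mice, against 27.5%, 37.2% and 33.3% in chow mice, and no single cell held more than 32.8% of a mouse's Basp1. In the cells with 2 or more of Krt17, Ccl2 and Vcam1 it was at 1315 and 1208 CPM in HC mice, against 772, 2623 and 876 CPM in chow mice, and in the other members at 106 and 138 CPM, against 21.3, 61.7 and 106 CPM. In those cells the diets overlapped, and in the other members HC mouse 1 and chow mouse 3 were level. The cells with 2 or more of the 3 genes made up 28.6% and 19.8% of members in HC mice, against 20.0%, 9.30% and 7.14% in chow mice. The summed level in HC mouse 2 includes the neuron-rich cell, which this share leaves out. The part of the share in the difference between the diets was not tested. The neuron-rich cell held 9 of the 193 UMIs of Basp1 in HC mouse 2, and without it the log2 change was 1.48 (edgeR adjusted p = 0.00394).

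Serpinb9 (chr13:33003250-33017957), an inhibitor of the killer-cell protease granzyme B, had 167 and 185 CPM in HC mice against 76.7, 62.7 and 36.2 CPM in chow mice. Both HC mice stood above every chow mouse, with a log2 change of 1.57 (SE 0.279, edgeR adjusted p = 0.0116). It had a UMI in 7 and 28 members in HC mice against 9, 14 and 7 in chow mice. Most of the UMIs in HC mice came from the cells with 2 or more of Krt17, Ccl2 and Vcam1: 17 in HC mouse 1 and 65 in HC mouse 2, against 12, 4 and 1 in chow mice, with 3 and 31 in the other members of HC mice against 6, 17 and 7 in those of chow mice. In the cells with 2 or more of the 3 genes it was at 379 and 608.5 CPM in HC mice against 257, 375 and 73.0 CPM in chow mice. Both HC mice stood above every chow mouse there, with HC mouse 1 and chow mouse 2 nearly level. In the other members Serpinb9 was at 39.9 and 77.6 CPM in HC mice against 31.9, 52.4 and 33.8 CPM in chow mice, where the diets overlapped. Serpinb9 has close relatives in the mouse genome (among them Serpinb9b and Serpinb9e), between which the counting could have split or dropped reads. Without HC mouse 2 the log2 change was 1.42 (adjusted p = 0.177).

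Chga (chr12:102554969-102565028) encodes chromogranin A, a protein of hormone granules, and had 74.98 and 75.05 CPM in HC mice against 226, 206 and 190 CPM in chow mice. Both HC mice stood below every chow mouse, with a log2 change of -1.48 (SE 0.262, edgeR adjusted p = 0.0116). Single cells held much of the chow signal: 1 cell held 56.6% of the Chga UMIs in chow mouse 1, 53.6% in chow mouse 2 and 64.3% in chow mouse 3, against 33.3% and 30.8% in HC mice 1 and 2. Among members with under 5% hormone RNA the log2 change was -0.96 (adjusted p = 1), and it was -1.18 (adjusted p = 0.503) without the 6% of highest doublet scores. Chga is an endocrine gene at 3564 CPM in the other kept cells, and the hormone share of member UMIs was 1.60% and 0.577% in HC mice against 2.37%, 1.29% and 1.75% in chow mice.

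Tyms (chr5:30058202-30073617), the thymidylate synthase needed for DNA synthesis, had 16.7 and 11.6 CPM in HC mice against 89.5, 65.7 and 49.8 CPM in chow mice. These levels rest on 2 and 6 UMIs in HC mice against 21, 22 and 11 in chow mice. Both HC mice stood below every chow mouse, with a log2 change of -2.42 (SE 0.474, edgeR adjusted p = 0.0326). It had a UMI in 4.76% and 6.19% of members in HC mice, against 35.0%, 37.2% and 14.3% in chow mice. The call was lost without HC mouse 2 (log2 -2.06, adjusted p = 0.491) and without chow mouse 1 (-2.24, 0.269), 2 (-2.47, 0.0828) or 3 (-2.55, 0.0816), and among members with under 5% hormone RNA (-2.42, 0.0614). The annotation also lists a related pseudogene, Tyms-ps, and reads shared with it could have been dropped. Members with at least 3 of 9 division genes were 1 of 21 and 2 of 96 in HC mice, against 2 of 40, 1 of 43 and 2 of 42 in chow mice. Of 19 cell cycle genes 7 were tested, and Tyms was the only one called; their median log2 change was -0.01, beside 0.0023 for all genes tested.

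**Figure D5:**
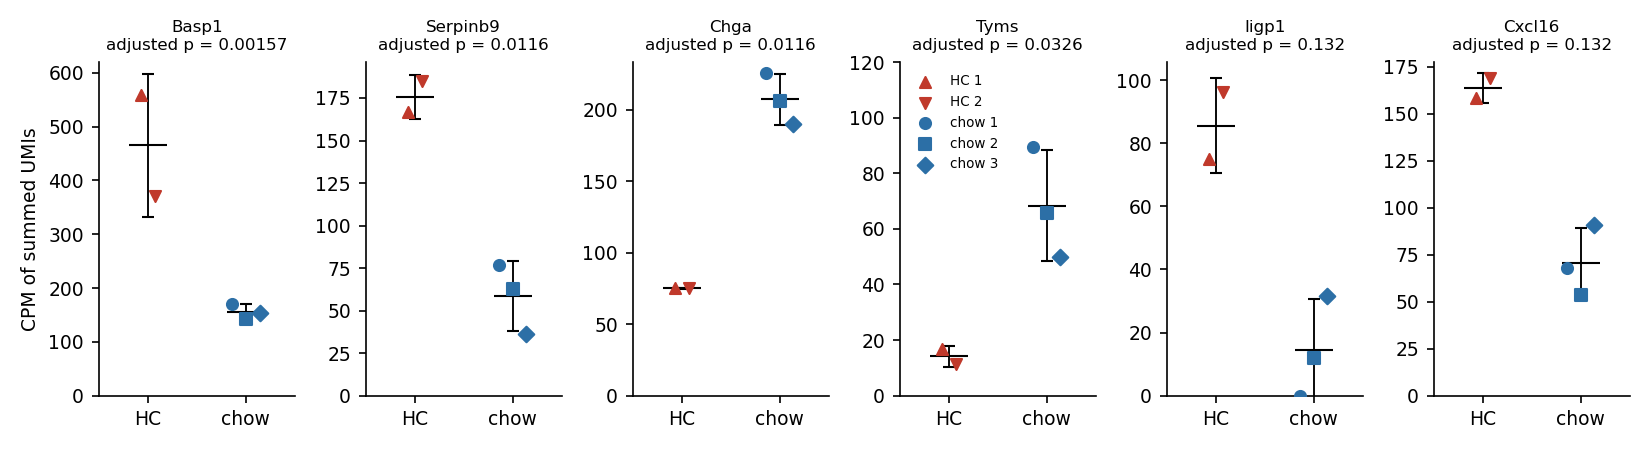
Summed level in ductal cells in CPM for the 4 called genes and for Iigp1 and Cxcl16, which did not pass the threshold; one symbol per mouse, with horizontal bars for the mean and whiskers for the SD (2 HC mice, 3 chow mice; the whisker of Iigp1 in chow mice is cut at 0). In all 6 panels both HC mice lie on one side of the 3 chow mice.

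The genes next in line did not pass the threshold. Iigp1, an interferon-inducible GTPase, had 74.98 and 96.2 CPM in HC mice against 0, 11.9 and 31.7 CPM in chow mice (log2 2.64, SE 0.545, edgeR adjusted p = 0.132). A single cell of HC mouse 2 held 66.0% of its Iigp1 UMIs. The related GTPase Igtp had 66.7 and 84.7 CPM in HC mice against 17.0, 26.9 and 36.2 CPM in chow mice (log2 1.55, adjusted p = 0.211), and again 1 cell held 65.9% of the UMIs in HC mouse 2. Among the other kept cells the log2 change was 2.26 for Iigp1 and 0.86 for Igtp, neither of them called. For neither gene did the difference of diet effects between ductal and other kept cells pass the threshold. Cxcl16, a chemokine bound to the membrane, had 158 and 169 CPM in HC mice against 68.2, 53.7 and 90.6 CPM in chow mice (log2 1.23, adjusted p = 0.132). It had a UMI in 8 and 29 members in HC mice against 9, 9 and 14 in chow mice. The cells with 2 or more of Krt17, Ccl2 and Vcam1 held 13 and 62 UMIs of Cxcl16 in HC mice against 10, 8 and 5 in chow mice, and the other members 6 and 26 in HC mice against 6, 10 and 15 in chow mice. In the cells with 2 or more of those genes Cxcl16 was at 290 and 580 CPM in HC mice against 214, 749 and 365 CPM in chow mice. In the other members it was at 79.8 and 65.1 CPM in HC mice against 31.9, 30.8 and 72.5 CPM in chow mice. The diets overlapped in both sets of cells. On the lower side stood Wfdc3 (log2 -1.37, adjusted p = 0.184), Mmd2 (-2.07, 0.482) and C2cd4b (-1.01, 0.574). Without HC mouse 2 the log2 change was -0.76 for Wfdc3, -1.17 for Mmd2 and -0.65 for C2cd4b, and with that mouse grouped by its title it was -0.41, -0.71 and -0.38. Grouped by title, Iigp1 was at 0.76, Igtp at 0.45 and Cxcl16 at 0.59. Without HC mouse 1 all 6 passed the threshold, with edgeR adjusted p between 2.39e-06 for Iigp1 and 0.0287 for C2cd4b; the HC group is then 1 mouse, assumed to vary as the chow mice do. For all 6 genes the HC mice lay beyond the chow mice, as they did for 10.5% of genes on the higher and 7.94% on the lower side.

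By group, no list held more than 1 called gene. Of 18 interferon-stimulated genes 12 were tested; all 12 had a log2 change above 0, 6 had an unadjusted p under 0.05 and none was called, and their median was 0.78, beside 0.0023 and 50.3% above 0 for all genes tested. Bst2 and Ifit1 were among those with an unadjusted p under 0.05. Bst2, which tethers viruses to the cell surface, had 342 and 483 CPM in HC mice against 196, 206 and 340 CPM in chow mice (log2 0.74, adjusted p = 1.00). Ifit1, an inhibitor of viral RNA translation, had 74.98 and 73.1 CPM in HC mice against 17.0, 41.8 and 31.7 CPM in chow mice (log2 1.20, adjusted p = 0.926). Of 16 antigen presentation genes 10 were tested and none was called; 9 had a log2 change above 0 and the median was 0.44. H2-K1, a class I molecule, had 1833 and 1668 CPM in HC mice against 1022, 922 and 1635 CPM in chow mice, with HC mouse 2 and chow mouse 3 nearly level.

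The diet's protein source made genes of the amino acid response a natural list to read. Of 23 such genes 11 were tested, all 11 had a log2 change above 0, 2 had an unadjusted p under 0.05 and none was called, with a median of 0.43. Of all genes tested 50.3% were above 0 and 4.57% had an unadjusted p under 0.05. Atf5, a transcription factor of that response, had 108 and 78.9 CPM in HC mice against 42.6, 44.8 and 45.3 CPM in chow mice (log2 0.94, SE 0.325, edgeR adjusted p = 0.947). Slc3a2, the heavy chain of amino acid transporters, had 100 and 114 CPM in HC mice against 76.7, 65.7 and 72.5 CPM in chow mice (log2 0.60, adjusted p = 1.00). Asns, the asparagine synthetase that this response induces, had 49.99 and 25.02 CPM in HC mice against 8.52, 14.9 and 45.3 CPM in chow mice, with the diets overlapping. The unfolded protein response had 15 of 21 genes tested, none called and a median of -0.10.

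Duct genes showed no called change. Of the 30 duct genes 28 were tested; 20 had a log2 change above 0, 4 an unadjusted p under 0.05 on the higher side, and the median was 0.14. Sftpd, a lectin that binds microbes, had 183 and 137 CPM in HC mice against 46.9, 74.6 and 77.0 CPM in chow mice (log2 1.15, SE 0.287, edgeR adjusted p = 0.211). Of 22 secretion genes 11 were tested with a median of -0.14; Aqp5 had 58.3 and 34.6 CPM in HC mice against 106, 86.6 and 58.9 CPM in chow mice (log2 -1.08, adjusted p = 0.947). Of 6 keratins 5 were tested, all with a log2 change above 0. Krt17 had 492 and 231 CPM in HC mice against 136, 92.5 and 190 CPM in chow mice (log2 1.26, SE 0.432, adjusted p = 1.00), and was called without HC mouse 2. Of 28 dissociation genes, which mark handling of the tissue, 21 were tested with none called and a median of 0.08. All 12 tested acinar genes had a log2 change under 0, with a median of -2.92 and none called. Their median was -3.74 within FUN libraries and -0.80 within SKY libraries. Without chow mouse 2, which had the lowest acinar share of the 5 mice, 13 genes were called, among them the acinar genes Clps, Cela3b, Sycn, Cela1, Zg16 and Pnlip.

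The diet effect on Basp1 and Chga differed between ductal and other cells. In the other kept cells, tested in the same way with edgeR, 0 of 14460 genes were called (0%), and 904 had an unadjusted p under 0.05. The difference of the diet effects, tested with the mouse as a block, passed the threshold for 2 of 4267 genes (0.0469%; edgeR, Benjamini-Hochberg), and 191 had an unadjusted p under 0.05. For Basp1 the log2 change was 1.51 in ductal cells and 0.26 in other cells, a difference of 1.23 (SE 0.214, adjusted p = 0.02). For Chga it was -1.48 and -0.32, a difference of -1.17 (SE 0.207, adjusted p = 0.02). In each chow mouse 1 member held 53.6% to 64.3% of the Chga UMIs. Among members with under 5% hormone RNA the ductal change of Chga was -0.96 and was not called. Tyms came next, with -2.42 and 0.04 (difference -2.54, adjusted p = 0.0853), together with Rarres2 (difference -2.66, 0.0853) and Tstd1 (-1.20, 0.0853), none of them past the threshold. The count was 1 without HC mouse 2, 1 without chow mouse 3 and 0 by title.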

How the data were processed

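The deposited files held raw UMI counts per gene and barcode for 5 libraries, made by the authors with Cell Ranger 4.0.0 and the mm10 build, per the submitters' processing notes; the annotation release is not given in the sources used here. Of 32285 Ensembl genes, 32158 had a symbol. Barcodes with at least 1000 UMIs, at least 500 genes and at most 15% mitochondrial UMIs were kept (Python 3.11.15, scanpy 1.11.5, scipy 1.17.1, numpy 2.4.6). Scrublet ran per mouse with an expected rate of 6% and removed no cell. Counts were summed over the members of each mouse and given as CPM of that sum. For the diets, these sums entered edgeR 4.0.16 under R 4.3.3 (TMM factors; genes kept by filterByExpr; two-sided quasi-likelihood test with robust fitting; threshold 0.05 after Benjamini-Hochberg adjustment), with DESeq2 1.42.0 as an alternative, and shares by exact permutation over mice; the edgeR step was tested on simulated data. Intervals are exact binomial (95%) and cover counting error only.

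The members and gene lists were chosen with earlier results of these data known, and the searched promoters, the letters searched and the subset with Krt17, Ccl2 and Vcam1 were chosen after values had been seen. Named were the rule genes and Lcn2, the 20 genes of highest ratio at 50 CPM or more in at least 4 mice, the leading genes and smallest diet p of each list, the 5 smallest diet p in each direction, and the 5 smallest p of the difference of diet effects. Other named genes were chosen after their values were seen. Gene coordinates are those of GRCm38. For shares of cells at equal depth, cells were thinned to 1000 UMIs. Beta cells were those with at least 20% of their UMIs from Ins1 and Ins2. Alternatives changed the rule, filters, scaling, grouping and terms of the model, and left out each mouse in turn. A few genes are not reported here.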

Additional observations from a re-analysis of the deposited data

Results flagged for a closer look

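The diet effect on Basp1 in ductal cells differed from that in all other kept cells by 1.23 on the log2 scale (SE 0.214, edgeR adjusted p = 0.02 for the interaction of diet and cell class with the mouse as a block). In ductal cells Basp1 was higher in both HC mice than in the 3 chow mice, as were 10.5% of all genes tested. The diet effect on Chga differed in the same test by -1.17 (SE 0.207, adjusted p = 0.02). Chga in ductal cells was lower in both HC mice than in the 3 chow mice, as were 7.94% of all genes tested. Chga is an endocrine gene, and 1 member held 53.6% to 64.3% of its UMIs in each chow mouse. Among members with under 5% hormone RNA its ductal log2 change was -0.96 and was not called.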

How the results depend on the processing

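The difference in the share of ductal cells, HC minus chow, ran between -0.504 and 1.26 points when single mice were left out, turning negative without HC mouse 2, and was -0.819 with that mouse grouped by its title. The hormone share difference ran between -1.22 and -0.204 points when single mice were left out and was 0.103 by title. The acinar share difference ran between -1.1 and -0.174 points when single mice were left out, was -0.586 by title, and was -0.00138 (exact permutation p = 1) among members with under 5% acinar RNA.

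The number of genes called between the diets, 4 as reported, ran between 0 (without chow mouse 3) and 35 (without HC mouse 1) when single mice were left out. It was 1 with hormones under 5%, 1 with 21 cells per mouse (Pyy, none of the 4), 2 without the highest doublet scores, 0 by title, 27 with no filter on low counts, 10 with the prefix as a term, 21 with age as a term and 0 in DESeq2. It was 4, with the same genes, with 12 UMIs of the rule genes, with acinar RNA under 5%, without hormone and acinar genes, with DESeq2's size factors and without the neuron-rich cell, an alternative chosen after seeing the data. Without HC mouse 1 and with no filter, neuron genes such as Stmn3, Prph and Uchl1 were among the calls. The number of genes whose diet effect differed between cell classes, 2 as reported, ran between 1 and 57 when single mice were left out and was 0 by title.

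Basp1 lost its call in 4 of 19 alternatives, Chga in 7 of 19, Serpinb9 in 5 of 18 and Tyms in 8 of 18, and none of them changed direction. Over the alternatives the adjusted p ranged between 1.68e-07 and 0.834 for Basp1, 0.000362 and 1 for Chga, 0.000313 and 1 for Serpinb9 and 0.000872 and 1 for Tyms. The causes were not tested. No paired analysis was possible because the replicate numbers were given in accession order and pair no mice. HC mouse 1 had 21 ductal cells and 120033 UMIs in them, which limits what could be called in genes of low level.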
